A study of Mus musculus with 23 samples.

Results

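Solute carriers are the large superfamily of membrane proteins that move nutrients, ions, metals, vitamins and metabolites across the plasma membrane and the membranes of organelles. The genes described here are the solute carrier genes expressed in splenic dendritic cells. They were chosen from the array values themselves: a gene had to carry a symbol beginning with Slc and a family number, be measured by a probe set assigned to that gene alone, and exceed a log2 intensity of 6.5 on 3 or more of 23 arrays, with the brightest probe set kept for each gene. This rule found 129 genes among 364 solute carrier genes with such a probe set, against 12157 genes tested in all. Of the 129, 3 match the symbol rule but encode no carrier (Slc7a6os, Slc4a1ap and Slc9a3r1), which leaves 126 carriers.

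Dendritic cells take up antigen, degrade it in endosomes and lysosomes and present it to T cells. Type 1 conventional dendritic cells (cDC1) are specialised for cross-presentation to CD8 T cells, type 2 conventional dendritic cells (cDC2) for presentation to CD4 T cells, and plasmacytoid dendritic cells (pDC) for interferon production after endosomal sensing of nucleic acids. Carriers bear on these tasks because they supply glucose and amino acids at the cell surface, set the ionic and nucleoside content of endolysosomes and exchange metabolites and calcium with mitochondria. Bcl6 is a zinc finger protein that represses transcription, needed for germinal centres.

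The arrays (Mouse Gene 1.0 ST) were hybridised with RNA from cDC1, cDC2 and pDC sorted from mouse spleen. Each cell type came from wild-type mice (WT) and from mice carrying a conditional Bcl6 knockout (Bcl6cKO, here cKO), without treatment or time series. There were 3 WT arrays of each cell type, 4 cKO arrays of cDC1 and 5 cKO arrays each of cDC2 and pDC. The Cre driver, the age of the mice, the sort gates and whether arrays of 1 number came from the same animals are not given in the sources used here, nor is it stated whether the arrays of a group are separate mice. The p-values then measure the spread between these arrays alone, and that spread may be technical.

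The labelled cDC1 and pDC arrays matched their defining markers. Above the array median were 8 of 8 cDC1 markers in both cDC1 groups and 6 of 6 measured pDC markers in both pDC groups. In the other groups, 5 to 7 of the cDC1 markers and 4 of the pDC markers were also above it. The summed cDC1 markers read 13.2 to 13.9 in cDC1 against 9.89 to 11.2 elsewhere, and the pDC markers 14.2 to 14.9 in pDC against 9.65 to 11.5. Of 8 cDC2 markers, 8 were above the median in WT cDC2 and 7 in cKO cDC2. In each of the other groups, 6 were also above it. The summed cDC2 markers read 11.8 to 12.3 in WT cDC2 and 12.3 to 13.1 in cKO cDC2. Both cDC1 groups lay lower, at 10.3 or less. WT pDC read 11.8 to 12.5 and cKO pDC 11.2 to 12.5, so these markers did not set WT cDC2 apart from pDC. The Bcl6 probe set was not called lower in cKO arrays: the log2 difference was 0.96 ± 0.35 in cDC1 (adjusted p = 0.598), 0.69 ± 0.33 in cDC2 (adjusted p = 0.756) and -0.15 ± 0.33 in pDC (adjusted p = 1). It may lie outside the deleted part and so does not check the genotype labels. Array medians fell into a lower set of 14 arrays (29.3 to 34.3 intensity units) and a higher set of 9 arrays (38.9 to 41.2), each holding arrays of all 6 groups. In the higher set, array 3 was the only array of each WT group, so differences within that set rest on single WT arrays. WT array 1 of each cell type stood apart in Xist, with log2 values of 10.9, 11.3 and 11.9 against 5.07 or less on the other 20 arrays. No cKO array had such a value, so each cKO minus WT contrast compares groups that also differ in this respect. Counts are therefore also given without these 3 arrays. In these bulk samples, fewer cells of a type and less RNA per cell cannot be told apart.

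Most of the expressed carriers were shared by the 3 cell types. Of the 129 genes, 37 exceeded 6.5 on all 23 arrays and 83 exceeded it on at least 1 array of every group. Another 13 exceeded it on arrays of 1 cell type alone: Slc12a7, Slc7a8 and Slc8a1 on cDC1 arrays, Slc38a5, Slc39a8, Slc43a1 and Slc4a8 on cDC2 arrays, and Slc25a22, Slc25a23, Slc30a9, Slc39a14, Slc41a2 and Slc52a3 on pDC arrays. Such genes entered through the cell type in which they are bright, so counts of cell type differences below describe the chosen genes and are set beside the share of the 7947 genes of any family that meet the same brightness rule. Entry could also depend on genotype: Slc7a11 exceeded 6.5 on cKO arrays alone, and Slc12a2 on WT cDC2 and cKO cDC1 arrays alone. Counts of genotype differences therefore also describe the chosen genes. At the edge of the rule, the third-brightest array read 6.40 for Slc16a3, 6.42 for Slc22a21 and 6.47 for Slc16a13, which stayed out, and 6.58 for Slc25a24 and 6.59 for both Slc7a7 and Slc35a1, which entered. The 129 genes were grouped by family number, except that Slc25a28 and Slc25a37 were counted with the metal ion carriers. They comprised 27 amino acid and peptide carriers (Slc7a6os among them), 17 inorganic ion carriers (with Slc4a1ap and Slc9a3r1) and 22 metal ion carriers. The others were 24 mitochondrial carriers, 15 nucleoside and nucleotide sugar carriers, 10 sugar and monocarboxylate carriers and 14 for vitamins, lipids and organic ions.

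Between cKO and WT arrays, 3 carriers changed. Slc7a11, the cystine importer that exchanges cystine for glutamate and supplies cysteine for glutathione, rose in cKO cDC1 and in cKO cDC2. Slc49a4, a carrier of the lysosomal membrane, rose in cKO cDC2. Slc12a2, the cotransporter that brings sodium, potassium and chloride into the cell, fell in cKO cDC2. No solute carrier passed the test in pDC.

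To show what lies ahead of the 2 genes that rose, their upstream sequences from RefSeq (GRCm38.p6) are given as the 250 bases before the annotated start, on the minus strand of the genome for both and written 5′ to 3′ in the direction of the gene. Slc7a11 is taken from chr3:50443614-50443863 and Slc49a4 from chr16:35769371-35769620. The capitals mark matches, on either strand, to 3 short motifs: TTCNNNGAA, the core bound by Bcl6 and STAT factors, TGACNNNGC, the antioxidant response core bound by Nrf2, and TTGCATCA, the amino acid response element bound by ATF4 with C/EBP partners.
Slc7a11: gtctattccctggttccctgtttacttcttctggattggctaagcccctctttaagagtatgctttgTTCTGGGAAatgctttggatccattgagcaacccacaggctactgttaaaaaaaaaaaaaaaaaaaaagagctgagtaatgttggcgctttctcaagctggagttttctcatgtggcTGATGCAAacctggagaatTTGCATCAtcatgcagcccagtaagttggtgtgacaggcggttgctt
Slc49a4: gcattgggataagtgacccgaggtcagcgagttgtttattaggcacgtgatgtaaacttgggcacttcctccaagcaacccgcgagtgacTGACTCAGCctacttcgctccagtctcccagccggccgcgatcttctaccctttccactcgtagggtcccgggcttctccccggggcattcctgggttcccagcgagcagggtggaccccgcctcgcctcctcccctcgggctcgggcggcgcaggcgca
The Slc7a11 sequence held TTCTGGGAA 183 bases before the start, the reverse complement of TTGCATCA 66 bases before it and TTGCATCA itself 47 bases before it. The Slc49a4 sequence held TGACTCAGC 160 bases before the start. No match overlapped another. Among 32851 promoters of this length, 7.02% held TTCNNNGAA, 10.2% TGACNNNGC and 0.791% TTGCATCA. Among 135 promoters of 98 of the expressed carriers the shares were 5.19%, 20% and 2.22%. A match is a run of letters and not a site of binding.

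In cDC1, the log2 values of Slc7a11 were 4.49, 4.49 and 4.53 in WT and 6.24, 7.06, 6.90 and 6.33 in cKO. The groups did not overlap, and each cKO array was above each WT array by more than 1 log2 unit. The log2 difference was 2.13 ± 0.23 (4.37-fold, adjusted p = 2.84e-06, limma with Benjamini-Hochberg adjustment over 12157 genes, as for every adjusted p here; errors of differences are standard errors). The WT values lay below the mean of the WT cDC1 array medians, 5.07, so the fold rests on a dim signal. The difference was 2.15 within the lower array set and 2.09 within the higher set, and it passed under each of 29 alternatives. It was the only call among the 129 genes in cDC1, where 1 (0.775%) was higher and 0 lower, against 0.814% higher and 0.0165% lower of all genes tested and 1.17% in either direction of the equally bright genes. The share is near the background.

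In cDC2, Slc7a11 read 5.94, 6.12 and 5.85 in WT and 6.77, 6.90, 6.88, 7.05 and 7.41 in cKO, again without overlap. The log2 difference was 1.03 ± 0.22 (2.04-fold, adjusted p = 0.0120), 0.82 within the lower array set and 1.38 within the higher. It missed the threshold without WT cDC2 array 1 (adjusted p = 0.0755), without WT cDC2 array 3 (adjusted p = 0.0794) and without WT array 1 of all 3 cell types (adjusted p = 0.0542), with the difference between 0.97 and 1.01. In pDC, values were 3.60, 4.42 and 4.31 in WT and ranged from 3.76 to 4.28 in cKO, below the array medians in both genotypes. The effect in cDC1 exceeded that in pDC by 2.22 ± 0.32 log2 units (adjusted p = 3.83e-04), whereas the effects in cDC1 and cDC2 were not shown to differ. Slc3a2, the heavy chain that carries Slc7a11 to the cell surface, read 10.61, 10.24 and 10.33 in WT cDC2 and 9.85, 9.99, 9.27, 9.78 and 9.89 in cKO cDC2. These did not overlap, but the difference of -0.64 ± 0.25 did not pass (adjusted p = 0.468).

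Slc49a4 in cDC2 read 6.88, 7.71 and 7.77 in WT and 8.38, 8.32, 8.89, 9.20 and 8.80 in cKO. All 5 cKO arrays were above the 3 WT arrays, and the log2 difference was 1.27 ± 0.31 (2.41-fold, adjusted p = 0.0382), with 1.24 and 1.23 within the lower and higher array sets. This call was near the threshold: it was lost under 11 of 29 alternatives, with adjusted p up to 0.404. Among these were the fits that left out WT cDC2 array 1 (adjusted p = 0.334), 2 (0.0735) or 3 (0.0590), cKO cDC2 array 3 (0.0749), 4 (0.109) or 5 (0.0826), cKO cDC1 array 4 (0.0502) or cKO pDC array 1 (0.0502). With the replicate number as a fixed or a random block, which can join arrays of both sets, the adjusted p was 0.0982 and 0.105. The difference itself stayed between 0.98 and 1.43. In cDC1, Slc49a4 read 6.22, 6.25 and 6.30 in WT and 6.90, 7.43, 7.39 and 7.32 in cKO, also without overlap, but 1.01 ± 0.33 did not pass (adjusted p = 0.356). In pDC the means were 10.27 ± 0.32 (SD, n = 3) in WT and 10.23 ± 0.71 (SD, n = 5) in cKO.

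Slc12a2 in cDC2 read 7.74, 6.97 and 7.96 in WT and 5.14, 5.47, 4.69, 5.78 and 5.61 in cKO. The lowest WT array was more than 1 log2 unit above the highest cKO array. The log2 difference was -2.22 ± 0.29 (4.65-fold lower, adjusted p = 5.13e-05), with -2.25 and -2.27 within the lower and higher sets. In cDC1, values were 6.04, 5.86 and 5.73 in WT and 5.62, 6.57, 6.62 and 5.92 in cKO, which overlap. The genotype effect in cDC1 exceeded that in cDC2 by 2.52 ± 0.42 (adjusted p = 0.00334). In pDC, values were 4.64, 4.54 and 4.86 in WT and 4.14 to 5.15 in cKO, and both means (4.68 and 4.56) lay below the mean array median of 5.11. A fall like that in cDC2 could not be measured there, so the difference of cDC2 minus pDC, -2.09 ± 0.41 (adjusted p = 0.0130), does not show that the genotype effects differ. Without the 3 WT arrays numbered 1, these differences were 2.51 (adjusted p = 0.0519) and -1.98 (adjusted p = 0.167). The second was also lost without WT cDC2 array 1 (adjusted p = 0.0531) or 3 (adjusted p = 0.0600). In WT, Slc12a2 was the carrier of the chosen set with the largest excess in cDC2 over pDC. In cKO cDC2 its values overlapped those of cKO cDC1 and of cKO pDC.

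**Figure D1:**
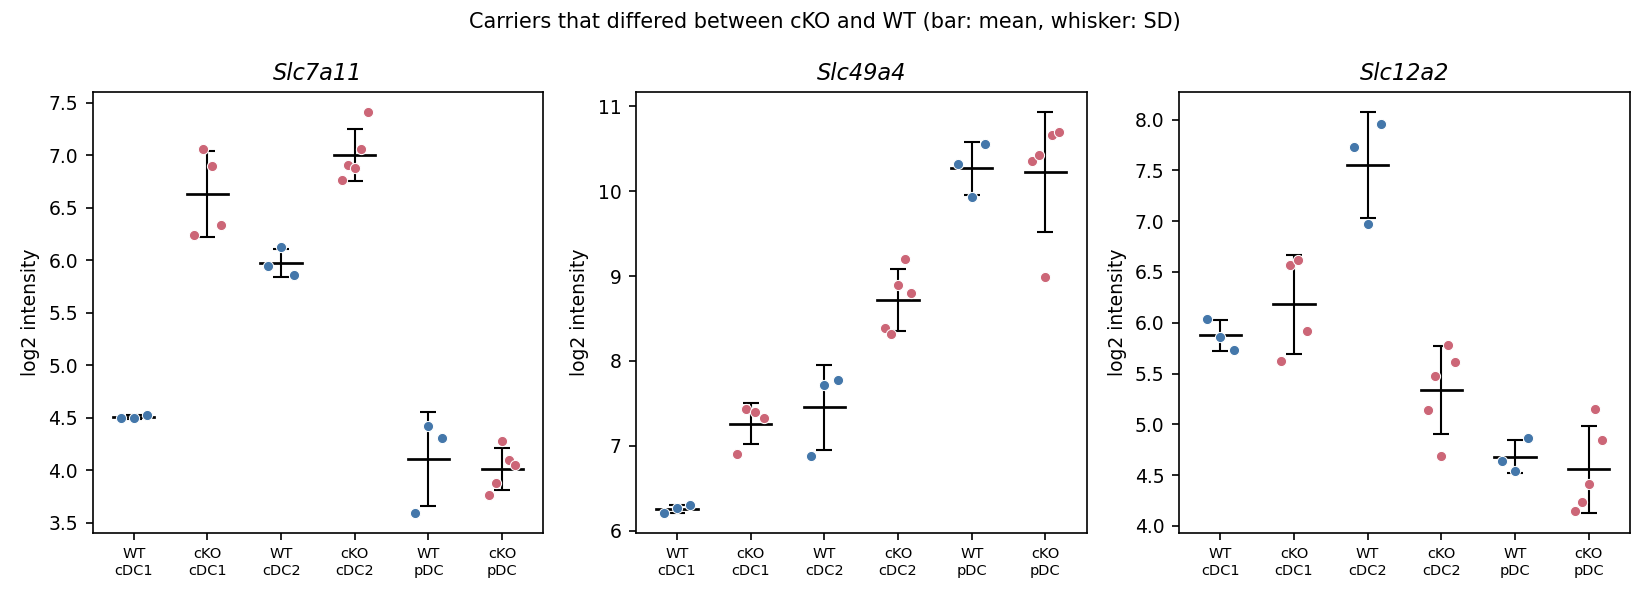
Log2 intensity of Slc7a11, Slc49a4 and Slc12a2 on each of 23 arrays, by group, with blue points for WT, red points for cKO, the group mean as a bar and the SD as a whisker. Slc7a11 is separated by genotype in cDC1 and cDC2 but not in pDC, and Slc12a2 in cDC2 falls from 7.56 on average in WT to 5.34 in cKO.

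Some markers of other cells moved with genotype in the same arrays. The summed log2 level of the 8 cDC2 markers ran from 8.03 to 8.44 in WT cDC1 and from 10.1 to 10.3 in cKO cDC1. On average, the signal regulatory protein Sirpa read 6.26 and 8.53, the lectin Cd209a 5.57 and 8.78 and Itgam 5.46 and 7.61. The other markers moved little: Clec10a (3.54 and 3.89) and Esam (5.11 and 5.39) upward. Clec4a4 (3.13 and 2.92), Cd4 (5.36 and 5.16) and Irf4 (5.40 and 5.36) were no higher in cKO cDC1. Slc7a11 and Slc49a4 were themselves higher in WT cDC2 than in WT cDC1. Of the 12 carriers called lower in WT cDC1 than in WT cDC2, 1 (Slc7a11) was called higher in cKO than in WT cDC1. The cKO minus WT differences of the 12 ran from -0.76 to 2.13 with a median of 0.31, and both comparisons share the WT cDC1 arrays. In cDC2, the lectin Clec4a4 averaged 7.55 in WT and 4.83 in cKO, and the lectin Clec10a 5.78 and 8.19. The 4 measured T cell markers of 5 summed to 8.46 to 8.97 in WT cDC2 and 8.82 to 9.70 in cKO cDC2, and the 4 NK cell markers to 6.02 to 7.37 and 6.67 to 7.99. Their part in the 3 carrier changes was not tested.

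Across the 129 genes in cDC2, 2 were higher and 1 lower in cKO (2.33% in all), against 1.16% higher and 0.403% lower of all genes tested and 2.15% of the equally bright genes, a share near the background in this fit. With the array set as a term 7 passed, and without the 3 WT arrays numbered 1 Slc12a2 alone did. The median difference of the 129 genes was 0.16 in cDC2 against 0.07 for all genes tested, 0.04 in cDC1 against 0.06, and 0.11 in pDC against 0.05. In pDC no carrier was called, with limma, against 0.0329% higher and 0% lower of all genes tested. At an unadjusted p under 0.05, 2 of 129 carriers (1.55%) differed in pDC against 1.99% of all genes, while 10 (7.75%) did in cDC1 against 3.28% and 17 (13.2%) in cDC2 against 6.5%. Exactly 1 carrier was called in each difference between genotype effects, against 0.28% of genes for cDC1 minus cDC2, 0.329% for cDC1 minus pDC and 0.485% for cDC2 minus pDC.

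In cDC1, the cKO and WT arrays of 13 of the 129 genes did not overlap. Of these, 7 were higher in cKO (2.94% of all genes tested) and 6 lower (1.28%), and Slc7a11 alone passed the test. Among the higher ones were 3 carriers of endolysosomes, chosen for mention after their values were seen. Slc15a3, an endolysosomal carrier of histidine and peptides, read 8.74, 8.47 and 8.75 in WT cDC1 and 9.42, 9.51, 10.25 and 10.0 in cKO cDC1 (difference 1.14 ± 0.41, adjusted p = 0.564). Its relative Slc15a4, which pDC need for endosomal Toll-like receptor signalling, read 7.34, 7.27 and 7.33 against 8.05, 7.84, 8.19 and 7.99 (0.71 ± 0.31, adjusted p = 1). Slc29a3, the nucleoside exporter of lysosomes, read 7.51, 6.41 and 7.27 against 8.04, 7.64, 8.34 and 8.04 (0.95 ± 0.36, adjusted p = 0.713). In cDC2 it read 7.31, 6.90 and 7.61 in WT and 8.51, 9.02, 7.68, 8.45 and 8.46 in cKO (1.15 ± 0.34, adjusted p = 0.139). With quantile normalization that last difference passed (1.08, adjusted p = 0.0450).

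**Figure D2:**
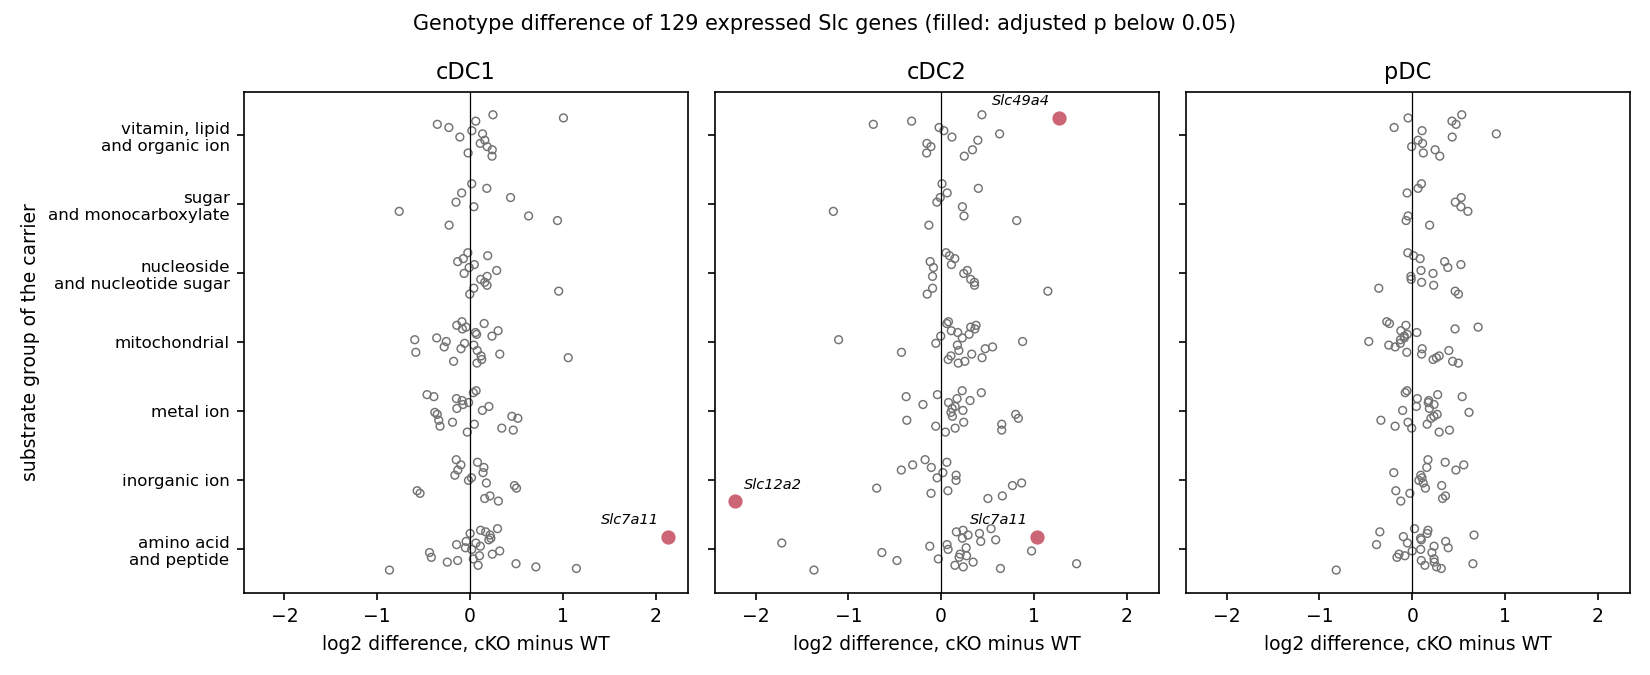
Log2 difference between cKO and WT for each of the 129 genes in cDC1, cDC2 and pDC, with genes placed by substrate group and spread vertically by name within a group. The filled points are the calls: Slc7a11 in cDC1 at 2.13, Slc12a2 at -2.22, Slc49a4 at 1.27 and Slc7a11 at 1.03 in cDC2, and none in pDC.

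Between WT cell types the carriers differed more widely. In all, 43 of 129 (33.3%) were called in at least 1 pair of WT cell types, against 25.8% of the equally bright genes and 19.5% of all genes tested. Between cDC1 and cDC2, 10 carriers were higher in cDC1 (3.02% of all genes tested) and 12 lower (3.04%), which is 17.1% of the carriers against 8.27% of equally bright genes. Between cDC1 and pDC, 17 were higher in cDC1 (8.37% of all genes) and 13 lower (5.14%), or 23.3% against 18.2%. Between cDC2 and pDC, 18 were higher in cDC2 (7.93% of all genes) and 8 lower (4.8%), or 20.2% against 17.1%. The counts of 22, 30 and 26 became 31, 46 and 45 with the array set as a term in the fit. Without the 3 WT arrays numbered 1 they were 11, 21 and 13, and without WT cDC2 array 1 alone the first was 14. The split of the last pair depended on scaling, with 69.2% of its called carriers higher in cDC2 as deposited and 52.6% after quantile normalization. All 37 differences named by rule had the same sign within each array set. In the higher set each WT group was array 3 alone.

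Slc8b1, Slc7a8 and Slc25a20 were high in cDC1 against both other types. Slc8b1, the sodium-calcium exchanger that lets calcium out of mitochondria, read 10.28, 9.61 and 9.98 in WT cDC1, 7.51, 7.36 and 7.76 in WT cDC2 and 7.22, 6.84 and 7.71 in WT pDC. Each cDC1 array was above each array of the other types. The difference was 2.42 ± 0.33 from cDC2 (5.34-fold, adjusted p = 2.04e-05) and 2.70 ± 0.33 from pDC (6.5-fold). The cKO arrays repeated it, with 9.12 to 10.10 in cDC1 against 6.48 to 7.52 in cDC2.

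Slc7a8, an exchanger of large neutral amino acids, read 7.24, 6.34 and 6.41 in WT cDC1, 4.41, 4.47 and 4.89 in WT cDC2 and 4.41, 4.08 and 5.14 in WT pDC. The last 2 groups lie around or below the array medians. The differences were 2.07 ± 0.32 (4.21-fold) and 2.12 ± 0.32 (4.34-fold). The excess over pDC was 2.54 within the lower array set and 1.27 within the higher. Slc25a20, which carries acylcarnitines into mitochondria for fatty acid oxidation, read 9.41, 9.35 and 9.06 in WT cDC1, 8.13, 8.08 and 6.91 in WT cDC2 and 6.93, 6.49 and 6.74 in WT pDC. Its level descended from cDC1 to cDC2 by 1.57 ± 0.31 and from cDC1 to pDC by 2.55 ± 0.31, and the lowest cDC2 array lay at the level of pDC. In all, 7 carriers were called higher in WT cDC1 than in both other types: Slc8b1, Slc7a8, Slc25a20, the potassium-chloride cotransporter Slc12a7, the copper carrier Slc31a2, the lysosomal amino acid exporter Slc66a1 and its relative Slc66a2. Of these 7, 6 were called so in cKO arrays as well. The 7 are 5.43% of the 129 genes against 2.22% of all genes tested and 3.05% of the equally bright genes. Another 7 were called lower in WT cDC1 than in both other types (against 0.88% and 1.31%): Slc2a1, Slc2a3, Slc2a6, Slc15a4, Slc16a7, Slc43a3 and Slc49a4.

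Slc9a9 and Slc25a32 were among the carriers with the largest excess of cDC1 over cDC2 but were not called against pDC. Slc9a9, the sodium-proton exchanger of endosomes, read 10.84, 10.0 and 10.21 in WT cDC1, 9.13, 8.33 and 8.67 in WT cDC2 and 10.39, 8.92 and 9.21 in WT pDC (1.64 ± 0.45, adjusted p = 0.0253). Slc25a32, the folate and flavin carrier of mitochondria, read 6.30, 6.19 and 6.61 in WT cDC1 and 5.72, 4.05 and 4.94 in WT cDC2 (1.46 ± 0.42, adjusted p = 0.0371). The Slc9a9 call was lost without WT cDC1 array 1 or 3 or WT cDC2 array 2 or 3 (adjusted p from 0.0575 to 0.147), and the Slc25a32 call without any 1 of the 3 WT cDC1 arrays or WT cDC2 array 2 or 3 (from 0.0680 to 0.262).

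Among the sugar and monocarboxylate carriers, 4 of 10 were lower in cDC1 than in either other type. Against WT cDC2, 4 were called lower in WT cDC1, 0 higher and 6 not called, and against pDC 4 were lower in cDC1, 1 higher and 5 not called. The 4 were the same in both comparisons: the glucose carriers Slc2a1, Slc2a3 and Slc2a6 and the monocarboxylate carrier Slc16a7. Of all genes tested, 3.04% were called lower in WT cDC1 than in WT cDC2 and 5.14% lower than in WT pDC. Slc2a3, the high-affinity glucose carrier, read 6.59, 6.55 and 6.93 in WT cDC1, 9.84, 9.31 and 10.42 in WT cDC2 and 10.02, 7.48 and 9.60 in WT pDC. Every WT cDC1 array was below every array of the other types, although WT pDC array 2 lay well under its group. The difference was -3.17 ± 0.49 from cDC2 (8.97-fold lower, adjusted p = 1.01e-04) and -2.34 ± 0.49 from pDC (5.08-fold lower, adjusted p = 0.00140). The second missed the threshold without the 3 WT arrays numbered 1 (-1.80, adjusted p = 0.0604). Slc2a6, a glucose carrier of lysosomal membranes, read 6.43, 5.63 and 6.5 in WT cDC1 and 8.0, 7.65 and 8.35 in WT cDC2 (-1.82 ± 0.37, adjusted p = 0.00215). Slc2a1, the ubiquitous glucose carrier, read 7.65, 7.06 and 7.92 against 8.65, 8.37 and 9.02 (-1.14 ± 0.30, adjusted p = 0.0210).

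The exception among the sugar and monocarboxylate carriers was Slc16a6, an exporter of ketone bodies. It read 8.36, 8.87 and 7.65 in WT cDC1, 8.44, 7.98 and 7.40 in WT cDC2 and 6.5, 5.14 and 6.59 in WT pDC. Both conventional types lay above pDC, by 2.22 ± 0.35 for cDC1 (4.65-fold, adjusted p = 6.52e-05) and 1.86 ± 0.35 for cDC2. Within the array sets the excess of cDC1 was 2.80 and 1.06. Those glycolysis genes that were called ran the other way from the glucose carriers. Of 12 tested from a list of 15, 4 were called higher in WT cDC1 than in WT cDC2 and 8 were not called. Against WT pDC, 8 were called higher and 4 were not, with 0 lower in either comparison. Of all genes tested, 3.02% were higher in WT cDC1 than in WT cDC2 and 8.37% higher than in WT pDC. Pfkfb3, the activator of phosphofructokinase, was higher in cDC1 than in pDC by 2.97 ± 0.24 (adjusted p = 2.71e-09), and the phosphofructokinase Pfkp by 2.22 ± 0.30 (adjusted p = 6.40e-06). The median over the 12 was 1.23 against 0.05 for all genes tested.

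**Figure D3:**
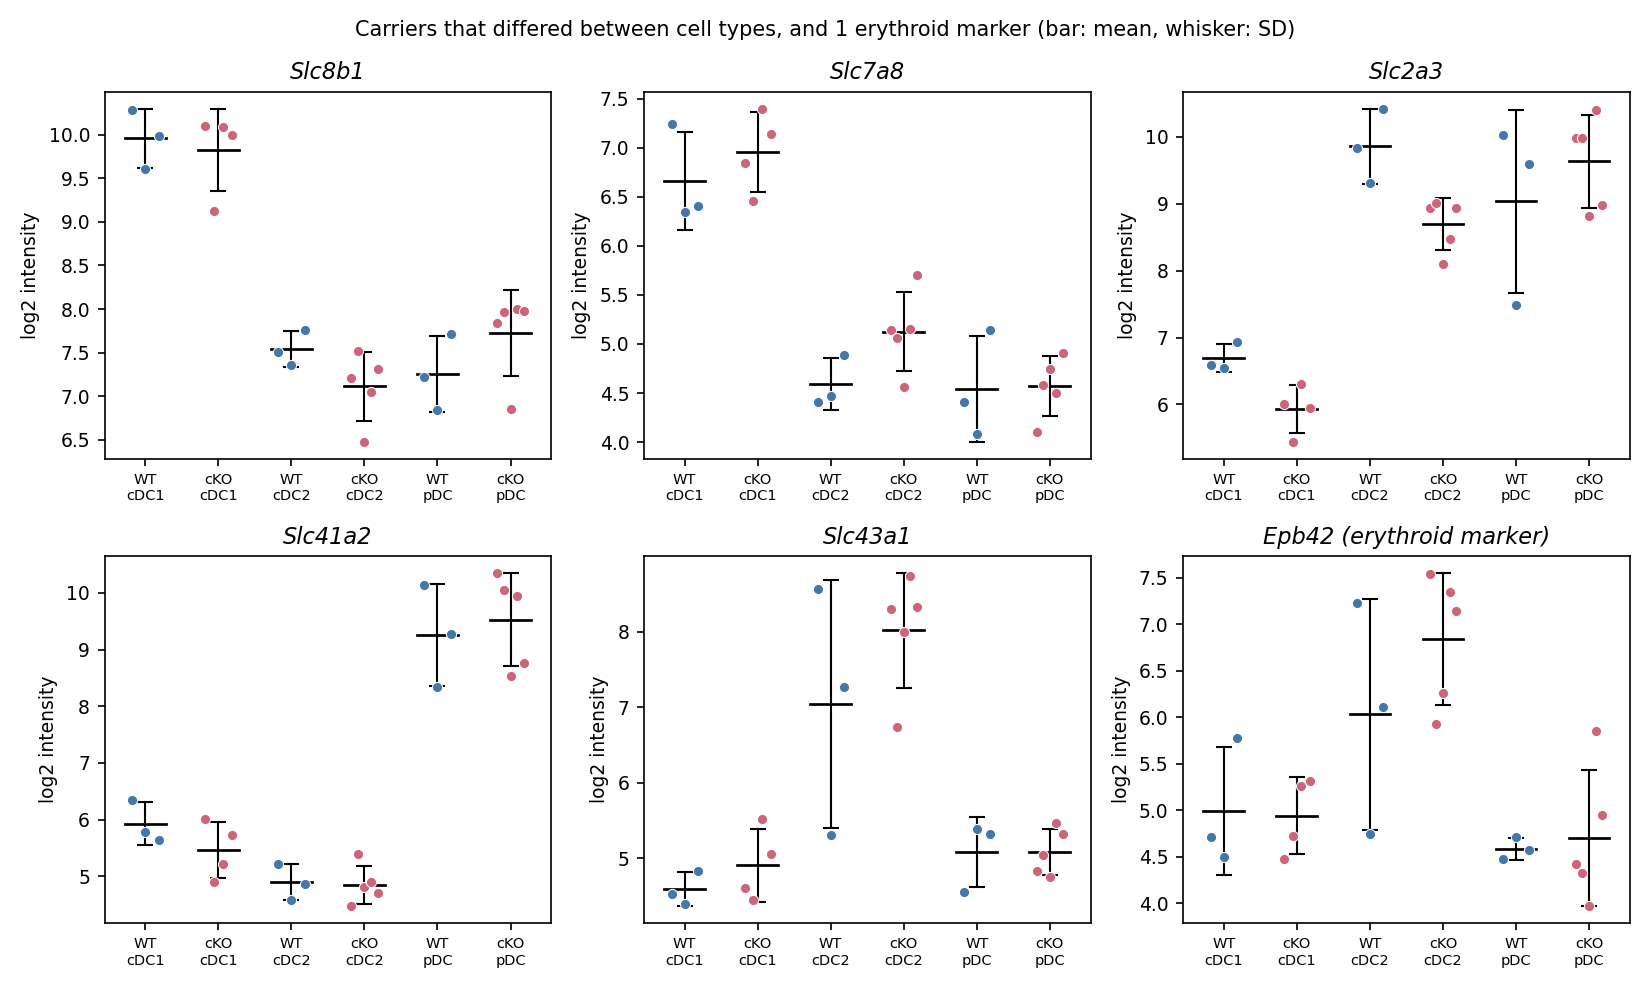
Log2 intensity on each array of 5 carriers that differed between cell types and of the erythroid marker Epb42, by group, with the mean as a bar and the SD as a whisker. Slc8b1 and Slc7a8 are highest in cDC1, Slc2a3 is lowest there, Slc41a2 is highest in pDC, and Slc43a1 is spread within WT cDC2 (5.30 to 8.57) as Epb42 is (4.75 to 7.23).

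Among amino acid and peptide carriers, the calls between cDC2 and pDC were all higher in cDC2. Of 27, WT cDC2 exceeded WT pDC in 6 calls with 0 the other way and 21 not called (median difference 0.20). Against WT cDC1, 5 were higher in cDC2 and 3 lower. Of all genes tested, 7.93% were called higher and 4.8% lower in WT cDC2 than in WT pDC. Against WT cDC1 the shares were 3.04% and 3.02%. Slc43a3, a member of the amino acid carrier family 43 that carries purine nucleobases, read 6.62, 6.63 and 7.31 in WT cDC1, 10.07, 8.80 and 9.11 in WT cDC2 and 8.11, 7.72 and 7.94 in WT pDC. The 3 ranges did not overlap. The difference cDC1 minus cDC2 was -2.47 ± 0.33 (5.56-fold lower, adjusted p = 1.50e-05). Slc7a11 was also called higher in WT cDC2 than in WT cDC1 (cDC1 minus cDC2, -1.47 ± 0.25) and than in WT pDC (1.87 ± 0.25). Asns, asparagine synthetase and a target of the ATF4 amino acid response, was higher in WT cDC2 than in WT pDC by 3.11 ± 0.44 (adjusted p = 1.80e-05) and lower in cDC1 than in cDC2 (-2.94 ± 0.44). Over the 11 tested genes of a 12-gene ATF4 list, cDC2 exceeded pDC in 2 calls with 0 the other way, and cDC1 lay below cDC2 in 1.

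Slc43a1 and Slc38a5 varied inside the cDC2 groups. Slc43a1, a carrier of branched-chain amino acids, read 8.57, 5.30 and 7.27 in WT cDC2, 8.30, 6.74, 8.0, 8.73 and 8.32 in cKO cDC2, and 4.40 to 5.52 in the cDC1 groups. WT cDC2 array 2 lay at the level of the pDC arrays. The difference cDC1 minus cDC2 was -2.46 ± 0.55 in WT (adjusted p = 0.00516) and -3.11 ± 0.45 in cKO. Slc38a5, a glutamine and asparagine carrier, read 8.17, 5.70 and 5.96 in WT cDC2 and 4.75 to 4.96 in WT cDC1 (-1.73 ± 0.43, adjusted p = 0.0134), so WT cDC2 array 1 gave much of its mean. Without that array the differences were -1.70 for Slc43a1 (adjusted p = 0.0574) and -0.95 for Slc38a5 (adjusted p = 0.107). Slc38a5 was also lost without WT cDC1 array 3 (adjusted p = 0.0549). Slc43a1 over pDC (1.96 ± 0.55, adjusted p = 0.0168) was 1.20 without WT cDC2 array 1 (adjusted p = 0.175) and 0.93 without the 3 WT arrays numbered 1 (adjusted p = 0.470), and was also lost without WT cDC2 array 3 (0.0616) or WT pDC array 1 (0.0833).

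These arrays also differed in erythroid transcripts. Of 7 erythroid markers, 4 were measured (Alas2, Epor, Klf1 and Epb42). In each cDC2 group, all 4 had means above the array median, and in each cDC1 and pDC group 0 did. Their summed log2 level ran from 7.11 to 8.78 in WT cDC2 and from 7.62 to 9.54 in cKO cDC2, against 6.23 to 7.36 in the other groups. On WT cDC2 arrays 1 to 3, Epb42, a protein of the red cell membrane skeleton, read 7.23, 4.75 and 6.11 and the erythropoietin receptor Epor 7.17, 5.01 and 6.32, in the same order as Slc43a1. The erythroid transcription factor Klf1 read 6.71, 5.75 and 7.35 and the haem synthesis enzyme Alas2 5.31, 4.65 and 5.89, both highest on array 3. Slc4a1, the anion exchanger of the red cell membrane, read 8.96, 6.58 and 7.63 on the same arrays, and Slc25a37, the iron importer of erythroid mitochondria, 7.88, 6.71 and 7.17. All 4 markers and all 3 carriers were lowest on array 2, and the carriers, Epb42 and Epor were highest on array 1. In cKO arrays Slc4a1 and Slc25a37 were called higher in cDC2 than in pDC, by 2.42 ± 0.55 and 1.67 ± 0.37. The part of erythroid transcripts in these results was not tested.

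Slc43a3 also had its highest value on WT cDC2 array 1 and its lowest on array 2, whereas Slc14a1 and Slc4a8 had other orders. Slc14a1, the urea carrier, read 9.0, 8.67 and 8.28 in WT cDC2 and 6.31 to 7.65 in the other WT groups, and the difference cDC1 minus cDC2 was -1.30 ± 0.30 (adjusted p = 0.00647). Slc4a8, the sodium-driven chloride-bicarbonate exchanger, read 6.98, 6.38 and 7.05 in WT cDC2, 6.28, 5.77 and 6.13 in WT cDC1 and 3.81, 4.41 and 5.16 in WT pDC. Both conventional types were above pDC, cDC2 by 2.34 ± 0.37 (5.06-fold, adjusted p = 6.94e-05). In all, 6 carriers were called higher in WT cDC2 than in both other types: Slc12a2, Slc14a1, Slc38a5, Slc43a1, Slc43a3 and Slc7a11. In cKO arrays 4 of the 6 were so called. The 6 are 4.65% of the 129 genes against 1.79% of all genes tested and 2.42% of the equally bright genes. Slc30a7, a zinc carrier of the Golgi, was the 1 carrier called lower in WT cDC2 than in both. Slc6a12, the betaine carrier used in osmotic balance, read 7.08, 7.47 and 9.08 in WT cDC2 and 4.61, 5.14 and 6.45 in WT pDC (2.48 ± 0.67, adjusted p = 0.0144), and was lost without WT cDC2 array 3 (0.110) or WT pDC array 1 (0.0809).

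Slc41a2, Slc39a14 and Slc49a4 set pDC apart from both conventional types. Slc41a2, a magnesium carrier, read 10.15, 8.34 and 9.27 in WT pDC, 6.35, 5.79 and 5.64 in WT cDC1 and 5.22, 4.59 and 4.87 in WT cDC2. Every pDC array was above every other WT array. The difference was -3.33 ± 0.45 for cDC1 minus pDC (10.0-fold) and -4.36 ± 0.45 for cDC2 minus pDC (20.5-fold, adjusted p = 1.81e-07), with cDC2 values near the array medians. Its relative Slc41a1, which exchanges sodium for magnesium, ran the other way, with 8.95, 7.35 and 8.48 in WT pDC, 10.63, 10.27 and 10.24 in WT cDC1 and 11.08, 10.48 and 11.23 in WT cDC2. It was higher in cDC1 by 2.12 ± 0.34 (4.34-fold) and in cDC2 by 2.67 ± 0.34 (6.36-fold). Of the 2 magnesium carriers, Slc41a2 was called higher and Slc41a1 lower in pDC than in each conventional type, in WT and in cKO arrays.

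Slc39a14, which imports zinc, iron and manganese, read 7.14, 6.35 and 7.23 in WT pDC, 5.17, 4.78 and 5.06 in WT cDC1 and 4.88, 5.41 and 4.83 in WT cDC2. The 2 conventional types overlapped each other and lay at the array medians. The differences were -1.90 ± 0.27 and -1.87 ± 0.27. Slc49a4 read 10.32, 9.93 and 10.56 in WT pDC, above the values of both conventional types given above. It was lower in cDC1 than in pDC (-4.01 ± 0.35, 16.2-fold) and in cDC2 than in pDC (-2.82 ± 0.35, 7.05-fold). Slc15a4 read 9.86, 8.86 and 9.70 in WT pDC, 8.82, 8.55 and 8.97 in WT cDC2 and 7.34, 7.27 and 7.33 in WT cDC1. cDC1 was lower than pDC (-2.16 ± 0.33, adjusted p = 3.37e-05), while the ranges of cDC2 and pDC overlapped. From a list of 12 partners of these carriers in endosomal Toll-like receptor signalling, 8 were tested. Tlr7, the sensor of single-stranded RNA, had the same order as Slc15a4: cDC1 minus pDC was -6.63 ± 0.36 and cDC1 minus cDC2 -5.17 ± 0.36. The list did not share it: in WT cDC1 against WT pDC 1 partner was called higher, 1 lower and 6 not (median 0.29). Against WT cDC2, 0 were higher, 2 lower and 6 not called.

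Slc44a2, a choline carrier, read 11.58, 9.76 and 10.63 in WT pDC, 10.53, 9.33 and 10.41 in WT cDC2 and 9.31, 7.49 and 8.80 in WT cDC1. cDC1 was lower than pDC (-2.12 ± 0.55, 4.35-fold, adjusted p = 0.00918), a call lost without WT cDC1 array 2 (0.0795) or WT pDC array 1 (0.0712). Slc29a3 read 9.11, 8.06 and 9.09 in WT pDC against 7.31, 6.90 and 7.61 in WT cDC2 (-1.48 ± 0.38, adjusted p = 0.0104). Slc25a12, the aspartate-glutamate carrier of mitochondria, read 8.83, 7.94 and 8.25 against 7.50, 6.24 and 6.81 (-1.49 ± 0.40, adjusted p = 0.0137). Without WT cDC2 array 2 or WT pDC array 1, the adjusted p was 0.0576 and 0.0563 for Slc29a3 and 0.0923 and 0.0802 for Slc25a12. In all, 5 carriers were called higher in WT pDC than in both other types (Slc29a3, Slc39a14, Slc41a2, Slc44a1 and Slc49a4), and 4 of them also in cKO arrays. This is 3.88% of the 129 genes against 3.18% of all genes tested and 3.90% of the equally bright genes, a share at the background. For Slc44a1, cDC2 minus pDC in WT was -1.40 on the probe set used but -0.36 on a second, dimmer one. The values for cDC1 minus pDC were -1.73 and -1.16. Lower in WT pDC than in both were 9 (6.98% against 4.24% and 6.20%).

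**Figure D4:**
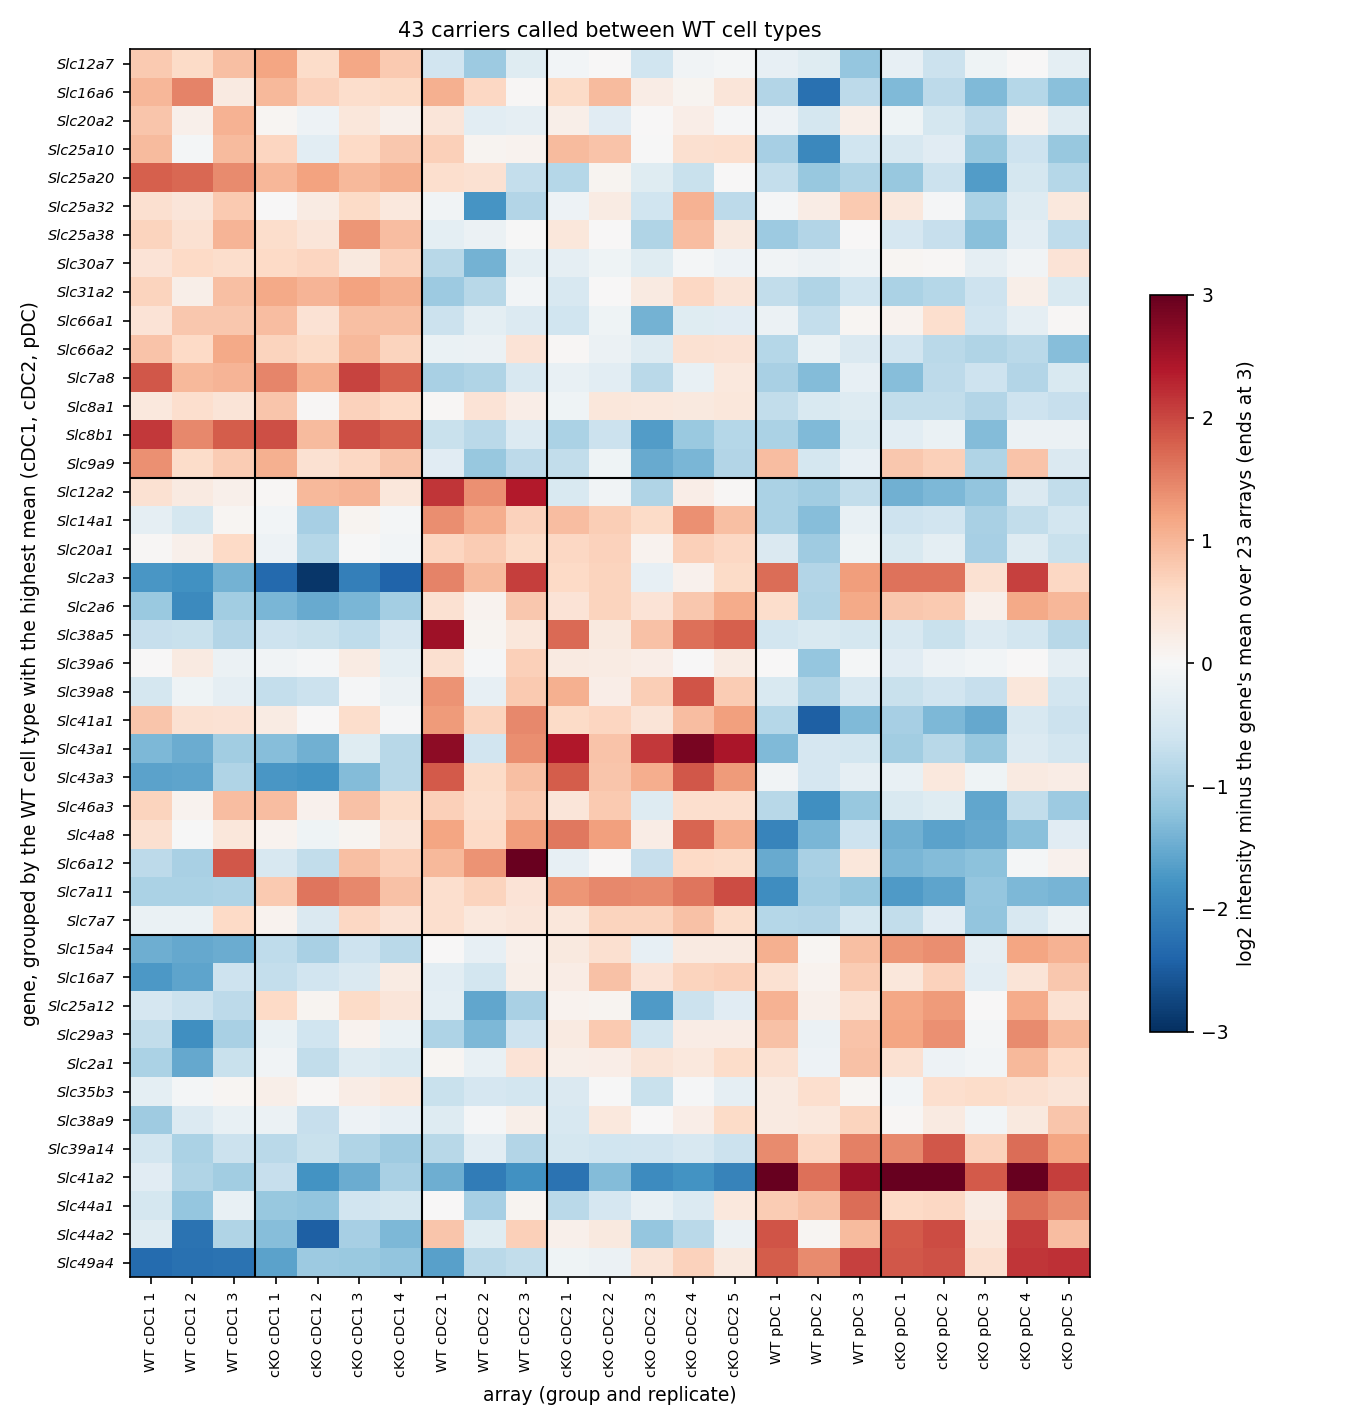
Log2 intensity minus the gene's mean over 23 arrays for the 43 carriers called between at least 1 pair of WT cell types, with arrays as columns and genes as rows, sorted by the WT cell type with the highest mean (15 in cDC1, 16 in cDC2 and 12 in pDC). Red is above and blue below the gene's mean, and the rows were chosen for these differences. Slc41a2, Slc49a4 and Slc39a14 are red on pDC arrays, and Slc2a3 is blue on cDC1 arrays of both genotypes.

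In the remaining substrate groups the calls were as follows. For all genes tested the shares were 3.02% higher and 3.04% lower in WT cDC1 than in WT cDC2. Against WT pDC they were 8.37% and 5.14% for WT cDC1 and 7.93% and 4.8% for WT cDC2. Of 17 inorganic ion carriers, WT cDC1 exceeded WT pDC in 7 calls and WT cDC2 exceeded it in 4, with 0 calls the other way. Between WT cDC1 and WT cDC2, 3 of them were higher in cDC1 and 1 lower. Of 24 mitochondrial carriers, 2 were higher in WT cDC1 than in cDC2 and 3 higher than in pDC, with 0 lower in either. WT cDC2 exceeded WT pDC in 2 of these and lay below it in 1. Of 22 metal ion carriers, cDC1 exceeded pDC in 2 and lay below it in 2, and cDC2 exceeded pDC in 3 and lay below it in 3. The 15 nucleoside and nucleotide sugar carriers gave 0 calls between cDC1 and cDC2, 1 between cDC1 and pDC and 2 between cDC2 and pDC, all lower in the conventional type. Their most variable members were Slc29a3 and Slc29a1, a nucleoside carrier of the cell surface, which read 6.49, 5.65 and 6.72 in WT cDC1, 8.23, 6.70 and 7.99 in WT cDC2 and 7.27, 5.25 and 7.28 in WT pDC, with overlap between cDC2 and pDC. The 14 carriers of vitamins, lipids and organic ions gave 2 lower calls in cDC1 than in cDC2 and, against pDC, 3 lower calls and 1 higher.

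The cell type differences were seen again in the separate cKO arrays. Between cDC1 and cDC2, 11 carriers were higher in cKO cDC1 (4% of all genes tested) and 17 lower (4.95%), which is 21.7% of the carriers against 11.5% of equally bright genes. Between cDC1 and pDC, 23 were higher (12.5% of all genes) and 21 lower (7.9%), or 34.1% against 26.9%. Between cDC2 and pDC, 26 were higher (13.5% of all genes) and 16 lower (7.27%), or 32.6% against 26.1%. After quantile normalization, the share of called carriers that were higher moved from 52.3% to 42.3% for cDC1 minus pDC and from 61.9% to 47.5% for cDC2 minus pDC. Of the carriers called in WT, 17 of 22, 27 of 30 and 21 of 26 were called in the same direction in cKO, which is 60.7%, 61.4% and 50% of the cKO calls. For all genes tested the share of WT calls also called in cKO was 75.1%, 85.7% and 84.9%, so the carriers were near the background. The 1 carrier called in opposite directions was Slc12a2, with cDC1 minus cDC2 of -1.68 ± 0.32 in WT and 0.84 ± 0.27 in cKO.

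**Figure D5:**
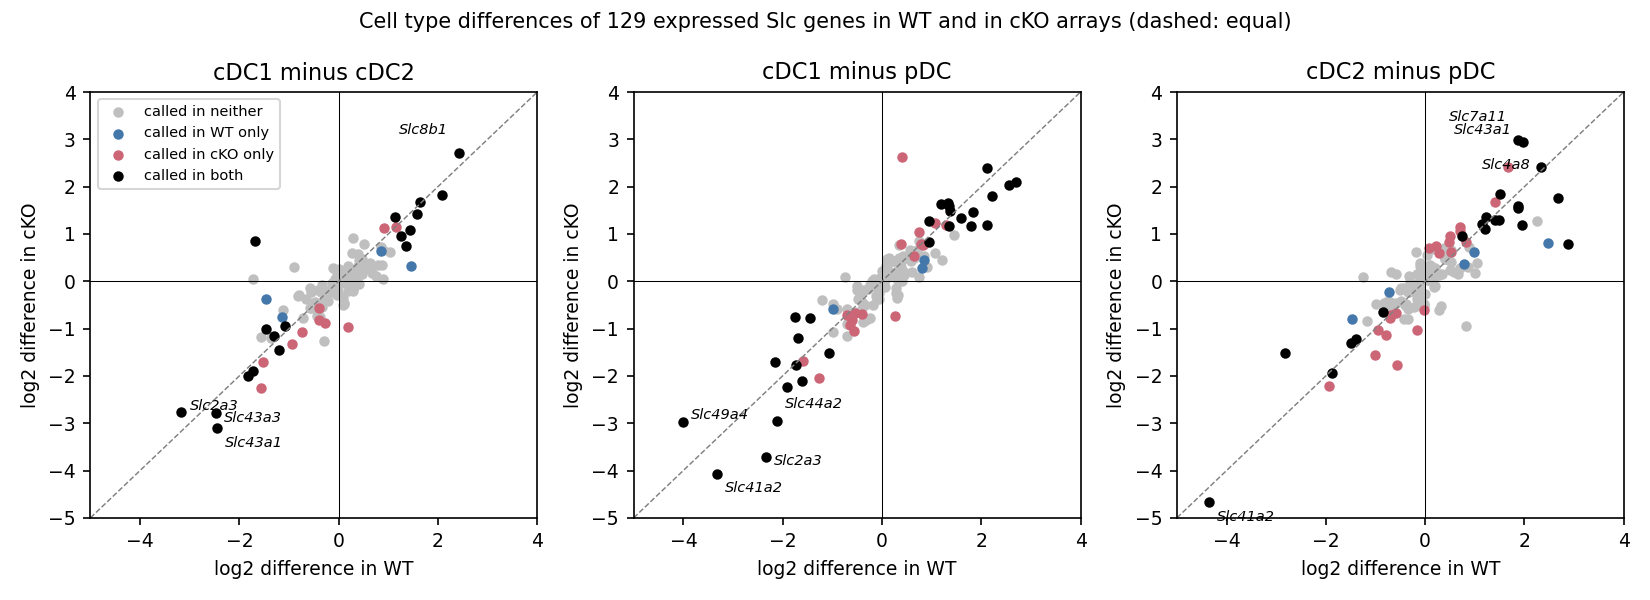
Log2 difference between cell types in cKO arrays against that in WT arrays for the 129 genes, with 1 panel per pair of cell types and a dashed line where both are equal. Black points are called in both genotypes, and the black point in the upper left of the first panel is Slc12a2, at -1.68 in WT and 0.84 in cKO.

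Some carriers also differed between the array sets. Of 129, 9 differed by over 1 log2 unit between the sets with group held fixed, 8 of them higher in the higher set, against 3.13% of all genes tested. Slc25a33, the pyrimidine nucleotide carrier of mitochondria and the most variable mitochondrial carrier beside Slc25a20, read 5.25 and 5.24 on the WT pDC arrays of the lower set and 8.10 on that of the higher set, a difference of 1.79 between sets over all groups. Slc6a12 differed by 1.52 between sets, with 5.32, 5.13 and 7.99 in WT cDC1. Values of these genes pooled over sets carry that spread.

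Genes that work beside the carriers were tested from 5 lists. Between cKO and WT, 2 of the listed genes passed, both in cDC2: Tlr7, at -2.11 ± 0.32 (adjusted p = 3.68e-04), and Abcb1a, a drug efflux pump of the ATP-binding cassette family, at -1.83 ± 0.25 (adjusted p = 1.01e-04). The lists gave 0 of 12 iron and metal handling genes, 0 of 12 glycolysis genes and 0 of 11 ATF4 genes in any cell type, although 2, 0 and 0 of them in cDC1, 0, 2 and 2 in cDC2 and 0 in pDC had an unadjusted p under 0.05 with limma. The shares of all genes tested at that p were 3.28% in cDC1, 6.5% in cDC2 and 1.99% in pDC. Of 11 ABC exporters, 3 were lower in WT cDC1 than in WT cDC2 and 2 higher in WT cDC2 than in WT pDC, among them Abcb1a (2.10, adjusted p = 8.61e-06) and Abca9 (1.67, adjusted p = 1.23e-04). The shares of all genes tested in these directions were 3.04% and 7.93%. In the metal list, the metallothionein Mt1 was higher in both conventional types than in pDC, by 2.43 ± 0.42 in cDC1 and 2.33 ± 0.42 in cDC2, and Mt2 was higher in cDC2 than in pDC by 2.77 ± 0.69.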

How the data were processed

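RNA of 3 dendritic cell types from spleens of WT and cKO mice was measured on 23 arrays. Per the labels' protocols, cells came from enzymatically digested spleens after red cell lysis, and biotinylated cDNA was made from column-purified total RNA with the WT Pico kit. Per the submitters' processing notes, the authors summarised probes with Affymetrix Expression Console and RMA (versions not given in the sources used here). The deposited intensity values run from 3.785 to 13980.744 and are linear, so log2 was taken first. Of 28853 probe sets, 21789 name 1 gene in the platform annotation, and 21698 of these matched RefSeq (GRCm38.p6) by Entrez identifier.

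Genes above the array median on 3 or more arrays (12157) were fitted with limma 3.58.1 (R 4.3.3) as 6 group means over all 23 arrays, leaving 17 residual degrees of freedom. P-values were adjusted by Benjamini-Hochberg over these genes in each of 12 contrasts, and an adjusted p below 0.05 is a call. Script steps were tested on simulated data. Their number, 23 arrays, limits the precision. Promoters came from RefSeq sequences of 250 bases. Figures used matplotlib 3.10.9.

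The carriers, lists and rules were chosen with earlier results of these data known. Named are carriers called between genotypes or in an interaction, and the 5 largest called differences in each direction per WT pair. Also named are the 2 most variable members of each of 7 substrate groups, set by family number apart from Slc25a28 and Slc25a37. The 3 nearest the threshold on either side and up to 2 genes per partner list were named too. In these lists, genes called between genotypes came first and then those with the largest difference. Other carriers named (among them Slc2a1, Slc14a1, Slc15a3, Slc4a1, Slc25a37, Slc3a2 and those listed for a pattern) were chosen after their values were seen. The alternatives were quantile normalization, array set as a term, replicate blocks, other brightness thresholds (6 and 7), fewer tested genes, and leaving out arrays.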

Additional observations from a re-analysis of the deposited data

Results flagged for a closer look

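In 6 of 75 groups of arrays examined for the 25 carriers named by rule, 1 array lay far from the others of its group, where chance gives about 1 in 20. cKO pDC array 3 was the outlying array in 4 of them. It read 8.53 for Slc15a4 (the other 4 arrays 9.86 to 10.19), 6.01 for Slc29a1 (7.28 to 7.53), 8.99 for Slc49a4 (10.36 to 10.70) and 6.86 for Slc8b1 (7.84 to 8.0). cKO pDC array 5 read 5.45 for Slc4a8 (4.17 to 4.53), and cKO cDC1 array 2 read 9.12 for Slc8b1 (9.99 to 10.10).

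By limma interaction tests, genotype effects were called different for 2 carriers: for Slc12a2 by 2.52 log2 units (cDC1 minus cDC2) and -2.09 (cDC2 minus pDC), and for Slc7a11 by 2.22 (cDC1 minus pDC). Slc12a2 in pDC lay below the array medians on average in both genotypes, so a fall there could not be measured and the second value does not show that the effects differ.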

How the results depend on the processing

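Of 37 named differences, 23 passed under each of 29 alternatives, 14 missed the threshold under at least 1, and none changed sign. Some alternatives left out 1 array that lay outside the groups compared. Such fits leave the difference unchanged and can alter only its p-value, so fewer than 29 bear on each difference. The cause of the changes below was not tested. With the array set as a term, carriers called in cDC2 between genotypes rose from 3 to 7, between WT cDC1 and pDC from 30 to 46, between WT cDC2 and pDC from 26 to 45, and in the interactions of cDC1 with cDC2 and of cDC2 with pDC from 1 to 3 each. Without the WT arrays numbered 1, the count was 1 for genotype in cDC2, 11 for WT cDC1 against cDC2, 13 for WT cDC2 against pDC and 0 for both interactions, which were also 0 at a brightness threshold of 7. Leaving out 1 array gave 1 to 2 calls for genotype in cDC1, 1 to 3 in cDC2, 14 to 24 for WT cDC1 against cDC2 and 0 to 2 for the interaction of cDC2 with pDC (2 without WT pDC array 1). The genotype count in cDC1 was 2 without cKO pDC array 3.

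The main fit left replicate numbers out, and whether they pair the arrays is not settled. Number 3 marks arrays of the higher set in WT and in cKO cDC1 but of the lower set in cKO cDC2 and cKO pDC. Blocks by number, and correlations of same-numbered arrays, therefore join arrays of both sets there. WT array 1 of all 3 cell types shared a high Xist value. The median correlation was 0.53 for same-numbered arrays of 1 genotype and different cell types. It was 0.44 for those of 1 cell type and different genotypes. Same-numbered arrays of 1 genotype and different cell types correlated at -0.30 to 0.70 (over 0.1 in 17 of 22 pairs). Those of 1 cell type and different genotypes correlated at -0.26 to 0.68 (over 0.1 in 5 of 9). Among arrays of the same genotype and another cell type, 16 of 23 arrays correlated best with one of their own number. With the number as a fixed block, the calls were 5 for genotype in cDC2 (Slc49a4 not among them, adjusted p = 0.0982), 48 for WT cDC1 against pDC, 44 for WT cDC2 against pDC and 67 for cKO cDC2 against pDC. As a random block (correlation 0.44), they were 37 for WT cDC1 against cDC2, 46 for both WT comparisons with pDC, 43 and 67 for cKO cDC2 against cDC1 and pDC, and 2 for both interactions with cDC2 (Slc49a4 adjusted p = 0.105). Quantile normalization moved the median of all genes by over 0.1 in 1 contrast, cKO cDC1 minus pDC (-0.11). Values below the array medians, such as Slc7a11 in WT cDC1, limit the size of folds.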
